A study of Mus musculus with 16 samples.

Results

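The genes described here are advillin (Avil) and 9 genes of the brush border, the carpet of microvilli on the apical face of absorptive gut epithelium. They are villin (Vil1), espin (Espn), ezrin (Ezr), Myo1a, Cdhr2, Cdhr5, Ush1c, Eps8 and plastin 1 (Pls1), and each symbol stood on 1 of the 31053 gene rows of the deposited matrices. Avil was selected on its ratio between the 2 libraries, which had been seen to be large, and the other genes were chosen for their place in the brush border with earlier results of the same data known. Single-cell transcriptomes were collected with 10x Chromium 3′ chemistry from organoids, which are epithelial cultures grown from tissue. The tissue was colon tumour induced in mice by AOM/DSS, that is by the carcinogen azoxymethane together with dextran sodium sulfate, which inflames the colon. The control library is labelled minus TAM with the genotype KMT9wt/wt, and the knockout library plus TAM with KMT9ko/ko. Both are at passage 14. The matrices of both libraries carry the same day label, so by label the values come from 1 time point. The event from which that day is counted is not given in the labels. What TAM stands for is not spelled out, and effects of TAM and of the knockout cannot be told apart. KMT9 is a histone methyltransferase whose catalytic subunit is the product of N6amt1, with Trmt112 as partner. The animal of origin, the number of tumours behind the culture and whether it grew from 1 clone are unknown here, since the labels leave them out.

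A microvillus is held up by a bundle of actin filaments. Villin, plastin 1 and espin tie the filaments together, Eps8 sits at their tips, Myo1a is a motor that joins the bundle to the membrane around it, and ezrin links filaments to membrane proteins. Cdhr2 and Cdhr5 are cadherins that bridge the tips of neighbouring microvilli, and Ush1c (harmonin) is the scaffold that anchors them. Advillin is a relative of villin and gelsolin that is known from sensory neurons and, in the gut, as a marker of tuft cells, chemosensory cells with their own tuft of microvilli. CDX2 and HNF4 factors are known to switch on brush border genes in intestinal epithelium.

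The promoters of Avil, Vil1 and Cdhr5 are shown because the results set Avil against villin and against the adhesion genes. Each sequence is 300 bases of RefSeq on GRCm38.p6, 250 before and 50 after the annotated start, written 5′ to 3′ on the strand of the gene. Capitals mark matches, on either strand, to 3 motifs: TTTATG (CDX factors), TGATGNAA (the C/EBP-ATF response element) and CAAAGTCC (HNF4). Positions count from the start site. Avil lies at chr10:127000459-127000758 on the plus strand, Vil1 at chr1:74409134-74409433 on the plus strand, and Cdhr5 at chr7:141276737-141277036 on the minus strand.
Avil: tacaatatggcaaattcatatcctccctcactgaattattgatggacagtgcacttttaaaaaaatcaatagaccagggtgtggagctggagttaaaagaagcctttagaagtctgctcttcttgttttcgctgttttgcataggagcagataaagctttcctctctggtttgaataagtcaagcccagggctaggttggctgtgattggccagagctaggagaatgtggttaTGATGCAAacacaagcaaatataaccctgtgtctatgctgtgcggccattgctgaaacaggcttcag
Vil1: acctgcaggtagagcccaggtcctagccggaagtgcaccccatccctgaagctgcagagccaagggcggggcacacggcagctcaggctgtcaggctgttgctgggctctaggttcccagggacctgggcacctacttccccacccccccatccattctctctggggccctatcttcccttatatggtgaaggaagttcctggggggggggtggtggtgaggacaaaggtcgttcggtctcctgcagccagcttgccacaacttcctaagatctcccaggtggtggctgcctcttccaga
Cdhr5: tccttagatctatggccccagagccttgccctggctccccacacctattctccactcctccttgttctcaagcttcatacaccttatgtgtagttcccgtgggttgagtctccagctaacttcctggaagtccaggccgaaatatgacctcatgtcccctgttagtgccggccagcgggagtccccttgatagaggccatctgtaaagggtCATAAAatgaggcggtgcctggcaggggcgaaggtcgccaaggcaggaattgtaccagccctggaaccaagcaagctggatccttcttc
The window of Avil held 1 match to TGATGNAA, at -17, the Cdhr5 window 1 match to TTTATG on the opposite strand, at -39, and the Vil1 window held none of the 3 motifs. GC content was 43.0% for Avil, 61.7% for Vil1 and 55.0% for Cdhr5. TGATGNAA was present in 3.97% of 32851 mouse promoters of the same length, TTTATG in 11.9% and CAAAGTCC in 1.42%. Among the promoters of the other members, 9 of 10 genes being in the table, only 1 of 3 Espn promoters held a further match, to TTTATG at -196. A match is a string of letters and no evidence of binding.

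Each group has 8 of the 16 records, and these were treated as pieces of the same library, so no difference below has a replicate check and no p-value is given. Intervals are 95% and cover counting error only. The filters left 2629 cells of the control library, which held 68605296 UMIs (unique molecular identifiers, which count captured RNA molecules), and 1481 cells of the knockout library, which held 37358097. Median depth was 24603 and 24184 UMIs. The targeted gene N6amt1 had 34.1 CPM (counts per 1000000 UMIs of the summed cells) without and 6.13 CPM with the knockout, the direction of the label. The tags come from the 3′ end of transcripts and may lie outside the deleted part, so this value need not measure the deletion itself. Of all barcodes, 498 occurred in both matrices, and they made up 167 kept control cells (6.35%) and 324 kept knockout cells (21.9%). For 318 of the latter, fewer UMIs stood under that barcode in the control matrix than in the knockout matrix. Library values, and the cluster values that rest most on these cells, are given with and without them.

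Avil stood much lower in the knockout library. Control cells held 86.0 CPM (5899 UMIs, interval 83.8 to 88.2) and knockout cells 17.5 CPM (655 UMIs, 16.2 to 18.9). The level was thus 4.90-fold lower and the log2 ratio -2.29 (interval -2.41 to -2.18). This ratio chose the gene and is given as a description. It was the lowest of the 3278 genes that reached 50 CPM in either library, and ranked 12 from the bottom among the 7912 that reached 10 CPM, here called measured. The lower level was spread over cells. After random thinning of every cell to 5000 UMIs, 29.4% (interval 27.6 to 31.2) of 2487 control cells and 7.79% (6.43 to 9.32) of 1387 knockout cells held an Avil UMI, and before thinning 58.0% and 23.0% did. No cell class known to lack Avil was named in the control library, so the share that free RNA can give was not measured there. With shared barcodes left out, Avil was at 84.1 and 19.2 CPM, with a log2 ratio of -2.13.

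All 10 members were measured. A ratio of 1.5-fold or more was called higher or lower, a threshold of size and not a test. By it 3 members, Avil, Myo1a and Ush1c, were lower, beside 10.7% of all measured genes, and 1 member, Cdhr2, was higher, beside 8.06% of all measured genes. The other 6 were neither. Avil was chosen for its ratio, so its call was fixed in advance, here and in the count without shared barcodes below. Without Avil 2 of 9 members were lower and 1 was higher. The median log2 ratio was -0.15 over the 10 members and -0.10 without Avil, beside -0.06 over all measured genes. Without the shared barcodes 4 members were lower (Avil, Myo1a, Cdhr5 and Ush1c) and 0 higher, beside 11.3% and 6.54% of all genes measured there, and 9 were measured, since Cdhr2 stood at 9.44 CPM or less in both libraries.

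**Figure D1:**
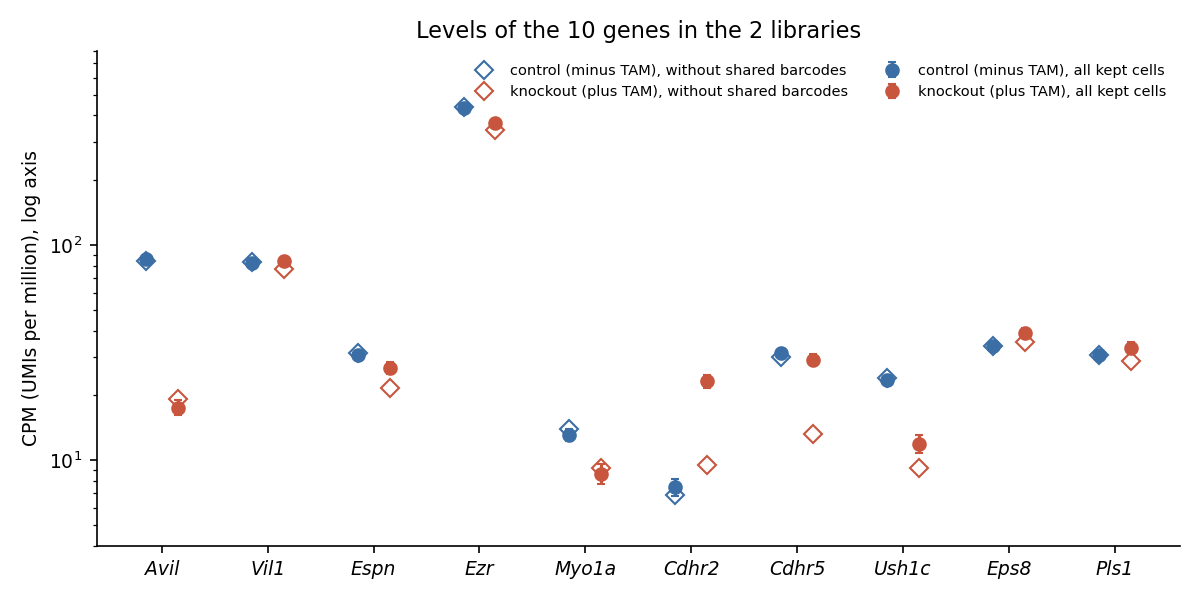
Level of each of the 10 genes in CPM (logarithmic axis) in each library, over all kept cells (filled points, with 95% counting intervals) and without shared barcodes (open diamonds). Avil drops from 86.0 to 17.5 CPM, while Vil1 is at 82.7 and 84.6 CPM.

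Villin did not share the difference. Its gene Vil1 was at 82.7 CPM (5674 UMIs) in control and 84.6 CPM (3160 UMIs) in knockout cells, a log2 ratio of 0.03 (interval -0.03 to 0.10). At 5000 UMIs, a Vil1 UMI was present in 32.3% and 32.6% of cells. Without shared barcodes its log2 ratio was -0.11. The other genes of the actin bundle were also within 1.5-fold. Espn stood at 30.8 and 26.9 CPM (log2 ratio -0.19, interval -0.30 to -0.08), and at 31.6 and 21.7 CPM without shared barcodes. With the control clusters, groups of similar cells described below, weighted to their shares in the knockout library, its log2 ratio was -0.75, past the threshold. Pls1 was at 30.8 and 33.3 CPM (0.11, interval 0.01 to 0.22). Eps8, at the tips of the bundle, was at 34.0 and 39.1 CPM (0.20, interval 0.11 to 0.30), the largest ratio of these 4 toward the knockout library.

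Of the 2 genes that tie the bundle to the membrane, Ezr was within 1.5-fold and Myo1a lower. Ezr was at 434 and 367 CPM, with a log2 ratio of -0.24 (interval -0.27 to -0.21), and 84.9% and 77.1% of thinned cells held its UMI. Myo1a stood at 13.1 CPM (900 UMIs) and 8.62 CPM (322 UMIs), a log2 ratio of -0.61 (interval -0.79 to -0.42), just past the threshold of 1.5-fold. Under other settings its log2 ratio was below 0 in 10 of 11, the lowest being -1.16 with cells thinned to 5000 UMIs (16.1 and 7.21 CPM). With the control clusters weighted in the same way, the log2 ratio was 0.36 (6.72 and 8.62 CPM), on the other side of 0 but within 1.5-fold and below 10 CPM. The call was also lost with no cell filter (-0.57) and with no doublets removed (-0.58).

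The adhesion genes went apart from each other. Ush1c, the scaffold, stood at 23.5 CPM (1613 UMIs) and 11.9 CPM (444 UMIs), a log2 ratio of -0.98 (interval -1.14 to -0.83), and at -1.39 without shared barcodes. Cdhr2 stood at 7.46 CPM (512 UMIs) and 23.2 CPM (868 UMIs), a log2 ratio of 1.64 (interval 1.48 to 1.80). Cdhr5 was at 31.3 and 29.3 CPM, with a log2 ratio of -0.10 (interval -0.20 to 0.01). In the knockout library the value of Cdhr5 rested largely on cluster 11 and that of Cdhr2 on clusters 7 and 11. Cluster 11, with 28 knockout cells and 2.47% of the UMIs of that library, held 46.8% of its Cdhr5 UMIs and 34.2% of its Cdhr2 UMIs. In cluster 11, 22 of the 28 cells had a shared barcode. Cluster 7, with 314 knockout cells and 24.6% of the UMIs, held a further 54.4% of the Cdhr2 UMIs and 23.7% of the Cdhr5 UMIs. With both clusters left out, a choice made after the data were seen, Cdhr2 stood at 6.23 and 3.63 CPM (log2 ratio -0.78), below 10 CPM and so not measured there. The Cdhr5 log2 ratio was -1.36 in that setting, lower in the knockout library. Without shared barcodes the Cdhr2 log2 ratio was 0.45, and Cdhr5 was at 30.2 and 13.2 CPM, with a log2 ratio of -1.19.

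**Figure D2:**
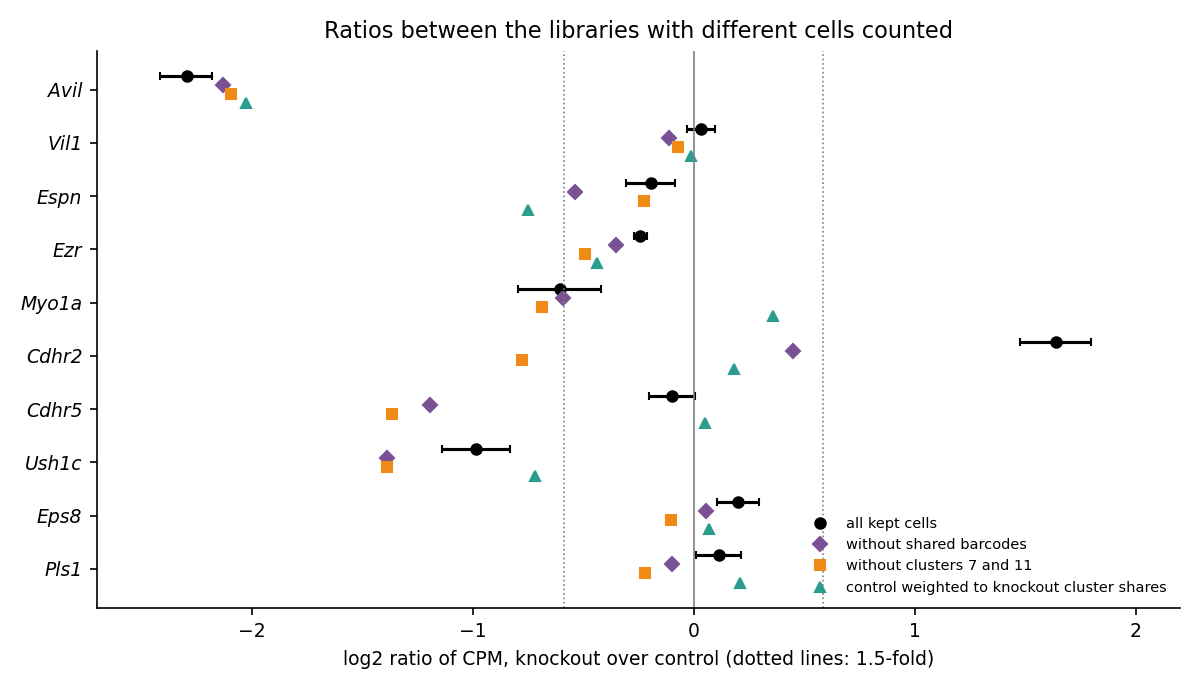
Log2 ratio of knockout over control for each gene over all kept cells (with 95% counting intervals), without cells of a shared barcode, without clusters 7 and 11, and with control clusters weighted to knockout shares; dotted lines mark 1.5-fold. Avil lies between -2.29 and -2.02 in these settings, while Cdhr2 moves from 1.64 to -0.78 and Cdhr5 from -0.10 to -1.36.

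Levels were next followed across cell states. Clusters were computed with the members and the brush border lists left out of the variable genes, so the members did not define them, although genes related to them could. Of 13 clusters, 9 held 50 or more control cells and 6 held 50 or more knockout cells. Cluster 2 was cycling-like, cluster 10 S phase-like, cluster 7 squamous-like and cluster 11 colonocyte-like by their markers, and the others are given by number and leading genes. Cluster 7 also held genes of fetal-like epithelium (Ly6a, Clu and Anxa1). Cluster 4 was almost all control (516 control and 7 knockout cells) and cluster 7 mostly knockout (34 and 314), so such clusters may be a library and not a state.

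Among the 9 clusters with 50 or more control cells Avil was highest in the cycling-like cluster 2, at 125 CPM (interval 119 to 131), and lowest in cluster 6, with Aqp1 and Fabp2 among its leading genes, at 41.4 CPM (37.6 to 45.4), a range of 3.02-fold. Values of smaller control clusters lay on both sides of cluster 6. Cluster 7 stood at 22.5 CPM in 34 control cells, and cluster 11 held 2 UMIs in 4. The 8 control cells of cluster 12 stood at 92.6 CPM (5 UMIs, interval 30.1 to 216), and the 7 of cluster 13 held no Avil UMI. Between the highest and the lowest of the 9, in falling order, lay cluster 10 (121 CPM), cluster 3, led by Cxcl14 and Cadps (111 CPM), cluster 4 (101 CPM), cluster 5, led by H19 and Spp1 (76.8 CPM), cluster 8, led by Prss56 and Pnliprp1 (60.1 CPM), and clusters 1 and 9 (59.6 CPM each). Intervals of neighbours in this order overlapped in 7 of 8 pairs, and only clusters 4 and 5 stood apart. At 5000 UMIs, 43.2% of cells in cluster 2 and 14.8% in cluster 6 held an Avil UMI. Villin had another order. Vil1 was highest in cluster 6, at 117 CPM, followed by clusters 8 (106 CPM) and 3 (100.2 CPM), and lowest in cluster 2, at 51.0 CPM, so among these 9 the highest cluster of Avil was the lowest of Vil1 and the reverse. The 4 control cells of cluster 11 held 38 Vil1 UMIs among 152030, above the level of cluster 6.

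Of the same 9 clusters, cluster 6 also had the highest levels of the adhesion cadherins, with Cdhr5 at 74.7 CPM and Cdhr2 at 18.5 CPM. In cluster 3 they stood at 7.71 and 1.2 CPM. Espn had the widest range of the bundle genes among control clusters, from 13.5 CPM in cluster 4 to 109 CPM in cluster 8 (8.10-fold). Ush1c and Myo1a were highest in cluster 1, led by Defa30 and Reg4, at 46.1 and 25.1 CPM. Ezr ranged 2.2-fold, from 246 to 541 CPM, and was highest in cluster 6.

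In the knockout library Avil lay between 10.5 CPM in cluster 9, from 3 UMIs, and 31.0 CPM in cluster 8, so each of its 6 larger clusters was below the lowest of the 9 control clusters. In the colonocyte-like cluster 11 of that library, where Vil1 was at 274 CPM, Cdhr5 at 555 CPM and Cdhr2 at 322 CPM, no Avil UMI was counted in 28 cells and 922718 UMIs. Taking 3 counts of the total as the limit that a count of 0 allows, this is up to 3.25 CPM. After thinning, 0 of 26 of those cells held an Avil UMI, for which the same limit of 3 counts is 11.5% of cells. The 6 of the 28 cells without a shared barcode had 53665 UMIs, with Vil1 at 224 CPM (12 UMIs), Cdhr5 at 559 CPM (30 UMIs), Cdhr2 at 317 CPM (17 UMIs) and again no Avil UMI (up to 55.9 CPM). The 27 knockout cells of cluster 6 also held no Avil UMI among 715070 (3 counts of the total are 4.2 CPM), with Vil1 at 144 CPM. In cluster 7, Avil was at 10.6 CPM, Ezr at 532 CPM and Cdhr2 at 51.4 CPM, and without shared barcodes at 13.6, 503 and 26.8 CPM.

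**Figure D3:**
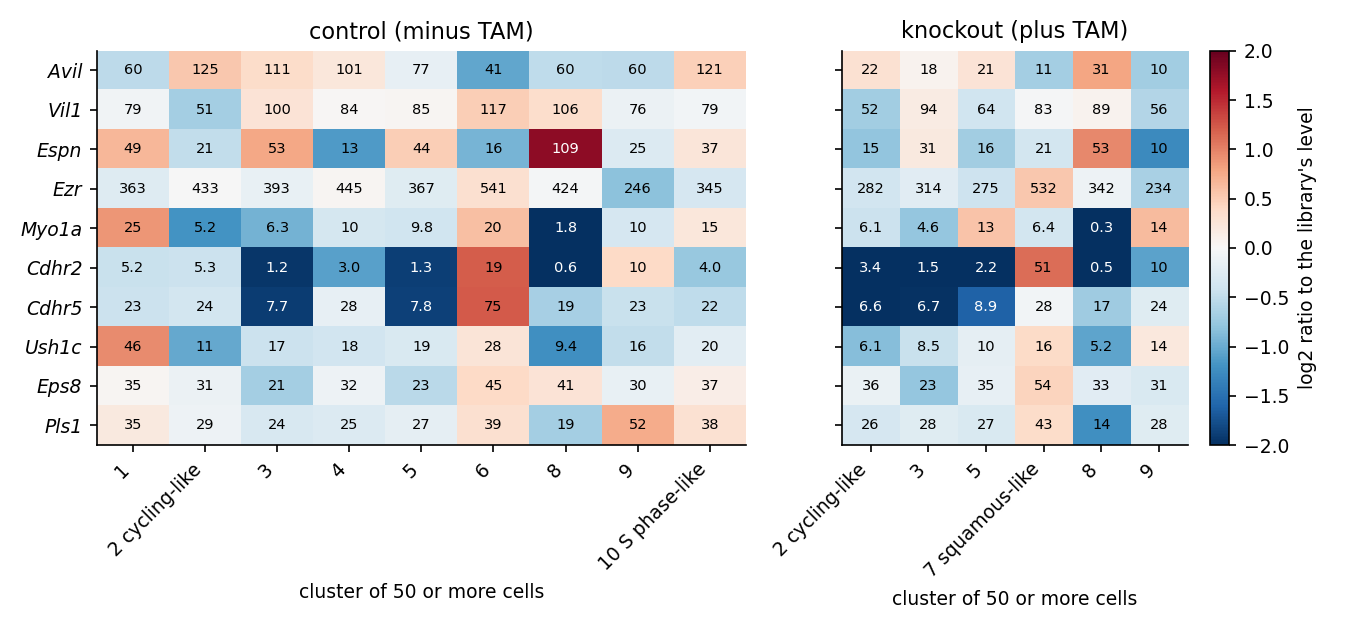
Level in CPM (printed) of each gene in the clusters with 50 or more cells of a library, coloured by its log2 ratio to the level of the gene in that library. In the control library Avil is highest in the cycling-like cluster 2 (125 CPM) and lowest in cluster 6 (41.4 CPM), where Vil1, Cdhr2 and Cdhr5 are highest.

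Avil was lower in the knockout library within each of the 5 clusters that had 50 or more cells of both libraries. In cluster 2 it stood at 125 and 21.8 CPM (log2 ratio -2.52, interval -2.83 to -2.22), in cluster 3 at 111 and 18.4 CPM (-2.59) and in cluster 5 at 76.8 and 21.3 CPM (-1.85). The difference was smaller in cluster 8, at 60.1 and 31.0 CPM (-0.95). In cluster 9, whose cells had a median of 3738 UMIs, the ratio of -2.51 rested on 47 and 3 UMIs. Without shared barcodes the 5 log2 ratios were -2.47, -2.53, -1.74, -1.0 and -2.49. Vil1 passed 1.5-fold in 0 of these 5 clusters, with log2 ratios from -0.44 to 0.03. Espn and Ush1c were each 1.5-fold or more lower in 4 of the 5, Espn with log2 ratios from -1.43 to -0.50 and Ush1c from -1.02 to -0.24. Their intervals included 0 for Espn in cluster 9 (20 and 3 UMIs) and for Ush1c in clusters 8 and 9. Ezr had log2 ratios below 0 in all 5, from -0.62 to -0.07, with an interval that included 0 only in cluster 9. It passed 1.5-fold only in cluster 2, at 433 and 282 CPM (-0.62, interval -0.71 to -0.53). Cdhr5 was lower in cluster 2 (24.1 and 6.59 CPM, log2 ratio -1.87, interval -2.47 to -1.32), while its intervals included 0 in the other 4. Cdhr2 had intervals that included 0 in all 5, from 1 to 79 UMIs a library. Eps8 and Pls1 intervals included 0 in 4 of 5 and 5 of 5 clusters, the exception being Eps8 in cluster 5 (23.1 and 34.9 CPM, log2 ratio 0.59).

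Whether Avil goes with villin from cell to cell was described by correlation of log-scaled values. Over 2629 control cells Pearson's r of Avil was -0.07 with Vil1, -0.08 with Espn, -0.05 with Pls1 and -0.02 with Eps8. It was 0.14 with Ezr. With Myo1a it was -0.11, with Cdhr2 -0.10, with Cdhr5 -0.16 and with Ush1c -0.22, so 8 of 9 values were below 0. After thinning to 5000 UMIs the values were nearer to 0, at -0.076 with Ush1c, -0.074 with Cdhr5, -0.027 with Vil1 and 0.050 with Ezr. Over 7500 genes with 10 or more CPM in the control library, the median r with Avil was 0.03, and the middle 95% ran from -0.10 to 0.18. All cells share 1 library, their depth bears on every value, and such weak correlations in sparse counts are no finding by themselves. Among the 36 pairs of the other 9 members, 28 had an r above 0, with a median of 0.06 and the highest, 0.26, between Cdhr2 and Cdhr5. No background of other gene pairs was computed for pairs without Avil, here or below. Their counts therefore cannot show whether these genes go together more than any others. In the knockout library r of Avil was -0.06 with Vil1 and below 0 with 8 of 9 members. The exception there was Espn (0.07) and no longer Ezr (-0.06). Over 7526 genes with 10 or more CPM in that library, the median r with Avil was 0.003. The middle 95% ran from -0.08 to 0.09. Of the other pairs, 36 of 36 were above 0, with a median of 0.16. Without clusters 7 and 11 that median was 0.06, with 28 of 36 above 0, and Avil was below 0 with 7 of 9. Without shared barcodes r of Avil and Vil1 was -0.019, Avil was below 0 with 7 of 9, and 30 of 36 other pairs were above 0, with a median of 0.10.

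**Figure D4:**
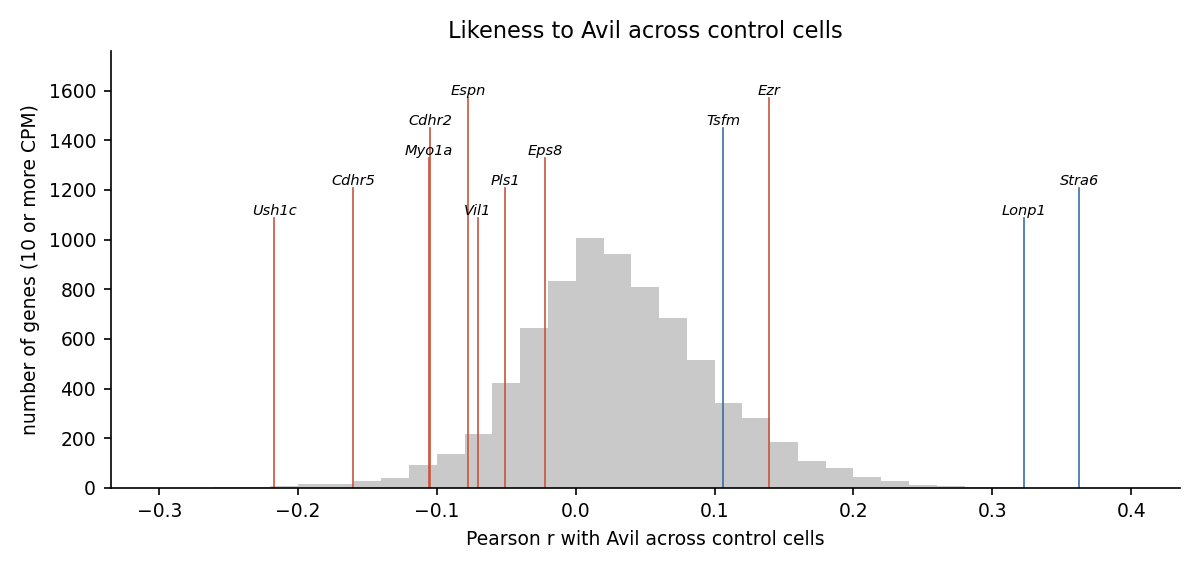
Number of genes by Pearson's r with Avil across 2629 control cells, for 7500 genes with 10 or more CPM, with the members as red lines and Tsfm, Lonp1 and Stra6 as blue lines (line height has no meaning). Most members lie left of the median of 0.03, with Ush1c at -0.22, and Ezr lies to the right at 0.14.

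Thinned cells were also split by whether they held an Avil UMI, and villin differed little between the 2 sets. In the control library, 731 cells with an Avil UMI had Vil1 at 79.6 CPM and 1756 cells without one had it at 85.1 CPM, a log2 ratio of -0.10 with an interval of -0.30 to 0.10. Espn, Cdhr2, Eps8 and Pls1 had intervals that also included 0. Cells with an Avil UMI had less of 3 members. Ush1c was at 17 against 31.2 CPM (log2 ratio -0.88, interval -1.30 to -0.48), Cdhr5 at 21.3 against 34.9 CPM (-0.71, interval -1.08 to -0.34) and Myo1a at 10.9 against 18.2 CPM (-0.74, interval -1.27 to -0.23). Ezr was at 452 against 423 CPM (0.10, interval 0.01 to 0.18), and at 0.08 (interval -0.01 to 0.17) without shared barcodes. Of the regulators of the brush border, Cdx1 was at 45.7 against 69.8 CPM, Cdx2 at 68.4 against 101 CPM and Hnf4a at 14.5 against 23.7 CPM, all lower in the cells with Avil. Klf4, a transcription factor of differentiating epithelium, was at 295 against 250 CPM.

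In the knockout library only 108 thinned cells held an Avil UMI, against 1279 without. Vil1 differed by a log2 ratio of 0.04 (interval -0.41 to 0.47) between them, and Ush1c by 0.18. Both cadherins were lower in the cells with Avil, Cdhr2 by a log2 ratio of -1.55 (interval -3.45 to -0.16) and Cdhr5 by one of -1.59 (interval -3.23 to -0.34), but without shared barcodes these were -0.32 and -0.42, with intervals that included 0.

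**Figure D5:**
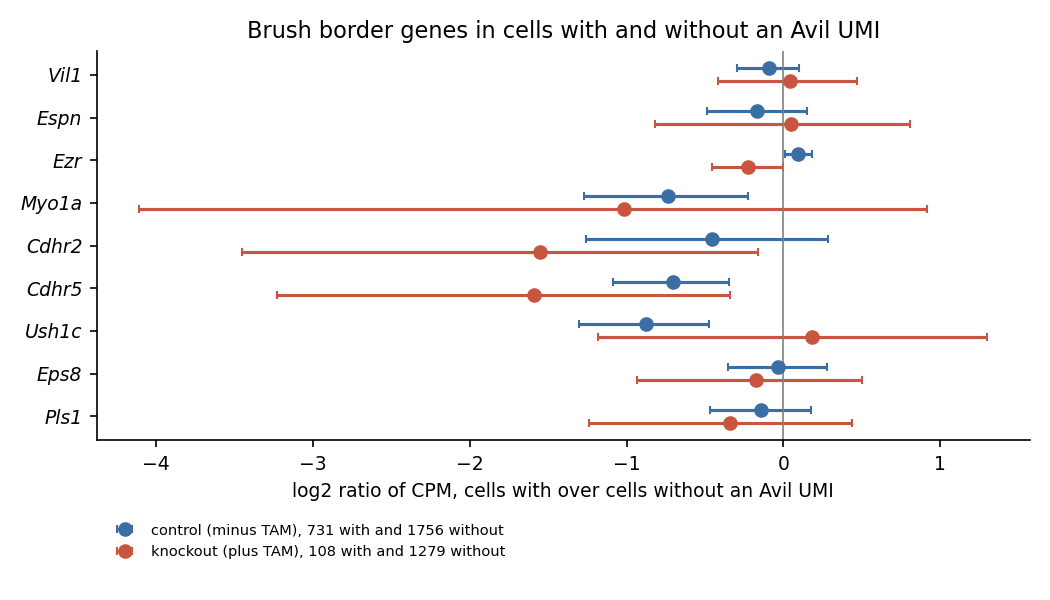
Log2 ratio of each member in cells with an Avil UMI over cells without one, after thinning to 5000 UMIs, with 95% counting intervals, for each library. In the control library Ush1c, Cdhr5 and Myo1a lie below 0 and the interval of Vil1 includes 0.

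The 10 genes most like Avil across control cells were Stra6 (r 0.36), a retinol transporter, Lonp1 (0.32), a mitochondrial protease, Cyb5r1, Ubald2, Hspa9, a mitochondrial chaperone, Calr, a chaperone of the endoplasmic reticulum, Ybx1, Dynll1, Eif5a and Krtcap2, the last with an r of 0.28. Between the libraries 4 of the 10 were lower, beside 10.7% of all measured genes, and 1 was higher, beside 8.06%. These shares are over the 7912 genes with 10 or more CPM in either library. The 10 genes were drawn only from the 7500 that reached it in the control library. Lonp1 stood at 174 and 58.0 CPM (log2 ratio -1.59), Cyb5r1 at 57.3 and 21.0 CPM (-1.44), Krtcap2 at 330.0 and 174 CPM (-0.93) and Hspa9 at 681 and 369 CPM (-0.88), all lower in the knockout library. Stra6 stood at 232 and 370.4 CPM (0.67), higher in the knockout library. The other 5 were within 1.5-fold, with log2 ratios from -0.47 (Ubald2) to -0.04 (Dynll1). Over knockout cells r of Avil with the 10 genes ran only from 0.01 (Cyb5r1) to 0.14 (Stra6). Across the 9 control clusters, the genes most like Avil were Timp1 (r 0.96), Rdx (0.93), Srsf5 (0.88), Csnk1e (0.87) and Hspb8 (0.86). Rdx encodes radixin, a relative of ezrin, and stood at 67.2 and 68.5 CPM in the 2 libraries. Over those clusters r of Avil with Vil1 was -0.57, and it was below 0 with each of the 9 members. Many other genes were below 0 too, since Espn (-0.05) and Ezr (-0.07) ranked only 4698 and 4833 from the top of 7500 genes. With Leiden resolution 0.4 r was below 0 with 7 of 9 members, the highest being 0.37. At resolution 1.2 it was below 0 with 8 of 9.

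In 3 lists of other genes of the same structures, no measured member was 1.5-fold or more lower over all kept cells. Of 27 listed genes of the microvillus core and its adhesion, 22 were measured, 6 were higher (27.3%, beside 8.06% of all measured genes) and 0 lower (beside 10.7%). The median log2 ratio was 0.29, beside -0.06 for all measured genes. Among those higher were the spectrin Sptan1 (0.89), which crosslinks actin in the terminal web, Eps8l1 (0.75), a relative of Eps8, and the motor Myo5b (0.75), which carries vesicles to the apical face. Without shared barcodes 5 of 22 were higher (beside 6.54% of all measured genes) and 0 lower. Without clusters 7 and 11 the median was -0.02, with 4 of 21 higher (beside 7.57%), and Myo5b was no longer among them. Of 15 genes of the ezrin family and apical scaffold, 10 were measured, moesin (Msn, 0.72) was higher and 0 were lower, and without clusters 7 and 11 none was higher. Of 24 digestive enzymes and transporters of the brush border only 3 were measured. Below 10 CPM, the glucose transporter gene Slc5a1 stood at 6.27 and 2.44 CPM (-1.36). Among them the membrane mucin gene Muc3 had a log2 ratio of 3.69, but stood at 1.19 and 2.71 CPM without shared barcodes, where the mucin gene Muc13 was lower, at 61.4 and 32.3 CPM. So 22 of 27 genes of the microvillus list reached 10 CPM, but 3 of 24 genes of enzymes and transporters did. The microvillus list also holds general cytoskeleton genes, such as Actb and Actg1, at 3076 and 4912 CPM in control cells. Actb (log2 ratio 0.60) and Myo1c (0.66) were among its 6 higher genes over all kept cells. Its counts are therefore not a measure of microvilli alone.

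In the family of villin and gelsolin, actin-severing and capping proteins, 7 of 8 genes were measured. Of these 1 was lower, Avil itself, which was chosen for its ratio, and 1 was higher, each 14.3% beside 10.7% and 8.06% of all measured genes. Vill, villin-like, stood at 6.52 and 22.3 CPM (log2 ratio 1.78), and at 6.85 and 23.4 CPM without shared barcodes. Capg (0.57), Svil (0.53), Flii (0.24) and Gsn (0.14) were within 1.5-fold. Of 14 listed regulators of brush border genes 12 were in the files and 9 were measured. Of these 2 were lower (22.2%, beside 10.7% of all measured genes) and 1 higher (11.1%, beside 8.06%), with a median of -0.39. Cdx2 stood at 93.3 and 25.3 CPM (-1.88), and Cdx1 at 55.3 and 25.8 CPM (-1.10). Mkl2, a coactivator of SRF, was higher (0.65), and Hnf4a (-0.40) was within 1.5-fold over all kept cells but joined the lower ones without shared barcodes. Within clusters 2, 3, 5, 8 and 9, Cdx2 had log2 ratios of -1.25, -1.03, -0.12, -0.45 and -2.12, and of -1.76, -0.94, -0.21, -1.04 and -2.10 without shared barcodes.

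Markers of tuft cells were at or near 0, although Avil is known as one of them. Of 16 other tuft cell genes only Ptgs1, cyclooxygenase 1, was measured, at 12.7 and 22.2 CPM. Dclk1, Gnb3 and Rgs13 had no UMI in either library, the tuft cell factor Pou2f3 had 3 and 1 UMIs, and the channel gene Trpm5 had 13 and 2. The 16 genes summed to 15.7 and 26.0 CPM, most of it from Ptgs1. Summed markers were 10.2 and 14.0 CPM for immune cells, 0.117 and 0.268 CPM for fibroblasts and 7.58 and 17.9 CPM for endothelial cells. Only 1 immune and 1 endothelial marker were measured. At 14.0 and 17.3 CPM in knockout cells, they made up nearly all of those sums.

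Positions of genes bear on how tags were assigned. Avil lies on chromosome 10 from 127000709 to 127020994 of mm10, on the plus strand, with 20 exons, the last from 127020450 to 127020994. Tsfm, a mitochondrial elongation factor gene on the opposite strand, overlaps it by 9423 bases through 1 of its 7 annotated transcripts, with 165 bases in exons of both. Tsfm was at 91.5 and 66.6 CPM, with a log2 ratio of -0.46. Within clusters 2, 3, 5, 8 and 9 its log2 ratios were -0.46, 0.08, -0.07, 0.09 and 0.12, beside those of Avil from -2.59 to -0.95. Across control cells r of Avil and Tsfm was 0.11. Vil1, on chromosome 1 from 74409376 to 74435559, shares 49 bases at its end with Usp37 on the opposite strand. The sources used here do not say whether counting used the strand, so how reads of these overlaps were assigned is not known here.

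N6amt1 was counted in few knockout cells, and there a difference of Avil with it was not detectable at this depth. After thinning, 38 knockout cells held an N6amt1 UMI and 1349 did not. Avil stood at 10.5 CPM (2 UMIs) in the first and 18.8 CPM (127 UMIs) in the second, a log2 ratio of -0.84 with an interval of -3.90 to 1.04. In the control library r of Avil and N6amt1 over cells was -0.04. There N6amt1 stood at 29.8 CPM in thinned cells with an Avil UMI and 37.4 CPM in those without (log2 ratio -0.32, interval -0.65 to -0.01), and without shared barcodes at 30.1 and 36.9 CPM (-0.30, interval -0.64 to 0.03).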

How the data were processed

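The authors deposited raw UMI counts for every gene and cell. Cell Ranger 3.1.0 produced them, per the file headers, and the genome was mm10, per the submitters' processing notes. No normalization had been applied. The sources used here do not give the annotation release. Positions come from GENCODE M21, which holds 30934 of the 31053 identifiers. The members and lists were chosen with earlier results of these data known.

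The cell filter asked for 1000 genes, 2000 UMIs and no more than 20% of UMIs from mitochondria, which removed 931 of 3618 control and 579 of 2078 knockout barcodes. Scrublet marked only 1 and 4 cells, so those with the highest scores, 0.8% for each 1000 cells, were removed instead (58 and 18). Counts were summed per library and scaled to CPM. Ratios are knockout over control, with no pseudocount. Intervals are exact Poisson (CPM), conditional binomial (ratios) and Clopper-Pearson (shares), and the limit given for a count of 0 is 3 counts of the total instead. For shares and splits, cells were thinned to 5000 UMIs, which left out 142 control and 94 knockout cells. Clustering used scanpy 1.11.5 on values scaled to 10000 per cell and log-transformed, with 2000 variable genes without the 82 listed genes, 30 principal components, 15 neighbours and Leiden resolution 0.8 (leidenalg 0.10.2), without integration. A cluster took a class name where 3 or more class markers were 2-fold up at 10 or more CPM, with 2 or more among its 10 leading genes. Named genes were the members, up to 4 measured genes per list with the largest ratios, the 10 genes most like Avil across control cells and the 5 most like it across control clusters. Not every gene it selects is reported here. Genes named beyond this rule (Capg, Svil, Flii, Gsn, Klf4, Actb, Actg1, Myo1c, Tsfm and markers) were taken from the lists or the annotation after their values were seen. Ratios, their intervals and calls were checked on simulated data. Alternatives covered the cell filter, doublets, minimum CPM, threshold, scaling (edgeR 4.0.16 trimmed means and median of ratios), thinning, cluster weights, shared barcodes and Leiden resolution.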

Additional observations from a re-analysis of the deposited data

How the results depend on the processing

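No paired analysis was possible because each group is 1 library and its records are numbered only in accession order. Of 192 values under other settings, 134 moved by less than their counting interval or kept within 1.5 times of a count, 56 moved further and 2 reversed. The Avil log2 ratio was below 0 in all 11 settings tried, at -2.13 without shared barcodes, -2.02 with control clusters weighted to knockout shares and -2.09 without clusters 7 and 11, which was added after the data were seen, as was leaving out cluster 11 alone. The ratio of Myo1a reversed to 0.36 with weighted clusters, and that of Cdhr2 to -0.78 without clusters 7 and 11. The number of members higher became 0 without shared barcodes, with weighted clusters, without clusters 7 and 11 and at a minimum of 50 CPM, and the number lower became 1 at a 2-fold threshold and at 50 CPM. It was 2 with no cell filter and with no doublets removed, where Myo1a lost its call. Thinning moved r of Avil with Vil1 to -0.027, and brought r with the other members nearer to 0. The range of Avil over control clusters was 2.06-fold at Leiden resolution 0.4 and 7.71-fold at 1.2. Other scalings moved the median of all measured genes from -0.06 to -0.09 and -0.10. Depth limits Cdhr2 and Myo1a within clusters and every value in clusters 9 and 11. The cause of each move was not tested, except that fewer genes pass a higher minimum or threshold.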
